A study of Mus musculus with 8 samples.

Results

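The schlafen family is a group of related genes that lie side by side on mouse chromosome 11. Its 7 members here, Slfn1, Slfn2, Slfn3, Slfn4, Slfn5, Slfn8 and Slfn9, were found by exact symbol among the 24421 genes of the count tables, and 6 of them had enough counts to be tested, among 10396 tested genes. The data are 3' RNA-seq libraries, which count the 3' ends of polyadenylated transcripts, from mouse CD8+ T cells. There were 4 libraries from LKB1-deficient cells and 4 from LKB1 wild-type cells, called control here. In both groups naive cells had been stimulated for 48 hours on plates coated with antibodies against CD3 and CD28. LKB1, the product of Stk11, is an upstream kinase of AMPK. The labels give no strain, age, sex, allele or Cre driver, nor whether each replicate is an animal of its own, so p-values cover the spread between these libraries alone, which may be technical.

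Schlafen proteins share an N-terminal core, and in mammals they differ in what follows it. Slfn1 and Slfn2 are short proteins made of little more than that core, Slfn3 and Slfn4 are of intermediate length, and Slfn5, Slfn8 and Slfn9 are long and carry a helicase-like part. Slfn1 was described as a gene that slows the growth of thymocytes when overexpressed. Mouse T cells with mutant Slfn2 lose quiescence, the resting state of naive cells, and Slfn2 protects tRNAs from cleavage in activated T cells. Several schlafen genes are induced by type I interferon.

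The sequences at the gene starts are shown because the short members Slfn1 and Slfn2 and the long members Slfn8 and Slfn9 hold different motifs there. RefSeq windows on GRCm38.p6 that run from 250 bases before to 50 bases after the annotated start were matched for 7 of 7 members. Slfn1 (chr11:83116570-83116869) and Slfn2 (chr11:83064862-83065161) are given on the plus strand, with an 11-base run that they share in capitals.
Slfn1: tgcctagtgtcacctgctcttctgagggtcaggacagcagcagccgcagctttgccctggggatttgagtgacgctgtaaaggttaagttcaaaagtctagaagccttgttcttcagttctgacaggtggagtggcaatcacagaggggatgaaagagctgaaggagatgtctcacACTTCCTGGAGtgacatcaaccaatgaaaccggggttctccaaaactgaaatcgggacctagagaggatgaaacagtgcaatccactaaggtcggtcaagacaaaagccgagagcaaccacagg
Slfn2: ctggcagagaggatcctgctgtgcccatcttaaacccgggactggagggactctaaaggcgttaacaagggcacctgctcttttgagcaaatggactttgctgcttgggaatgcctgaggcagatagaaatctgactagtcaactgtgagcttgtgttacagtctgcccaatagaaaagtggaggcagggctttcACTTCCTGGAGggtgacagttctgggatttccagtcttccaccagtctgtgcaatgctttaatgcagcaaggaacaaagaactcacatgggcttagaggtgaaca
The run ACTTCCTGGAG stood 74 bases before the start in Slfn1, 55 before it in Slfn2 and 73 before it in Slfn4, and 24 of 32851 windows of this kind held it on either strand (0.0731%). It was chosen after the sequences had been read, as the longest run found in at least 3 member windows. Slfn8 (chr11:83020761-83021060) and Slfn9 (chr11:82991781-82992080) are given on the minus strand. Their capitals mark the core of the interferon-stimulated response element, searched on both strands as GAAA, any 2 bases, then GAAA (GAAAACGAAA in both genes, on the strand opposite to the one printed).
Slfn8: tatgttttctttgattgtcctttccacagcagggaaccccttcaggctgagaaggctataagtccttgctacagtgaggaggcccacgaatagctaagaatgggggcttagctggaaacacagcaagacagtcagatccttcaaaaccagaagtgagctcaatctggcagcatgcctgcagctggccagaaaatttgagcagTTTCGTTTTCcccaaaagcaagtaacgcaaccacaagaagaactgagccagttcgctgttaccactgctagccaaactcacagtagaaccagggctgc
Slfn9: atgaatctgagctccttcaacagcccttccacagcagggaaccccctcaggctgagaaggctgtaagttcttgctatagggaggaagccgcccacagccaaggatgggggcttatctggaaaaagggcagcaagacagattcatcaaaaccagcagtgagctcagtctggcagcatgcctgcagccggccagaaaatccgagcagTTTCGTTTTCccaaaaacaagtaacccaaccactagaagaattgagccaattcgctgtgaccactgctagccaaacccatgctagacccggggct
That core was in 3.44% of all windows and in 3 members, Slfn5, Slfn8 and Slfn9. The windows of Slfn8 and Slfn9 are much alike, with a shared run of 20 bases, so their matches do not count separately. The match in Slfn5, GAAAAAGAAA, ran on into a stretch of A. The gamma-activated site, searched on both strands as TTC, any 3 bases, then GAA, was in 8.3% of windows and in 0 members. A match is a description of the letters and not a bound site.

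The genes' sequences also set how well their reads can be told apart. Over the coding part, Slfn8 and Slfn9 were 92.7% identical, Slfn3 and Slfn4 92.3%, and Slfn1 and Slfn2 71.3%. Slfn1 was closest to Slfn4 (75.3%), and Slfn2 to Slfn3 (75.2%). Of the 50-base windows in the last 500 bases of each gene's longest transcript, 0% of those of Slfn1, Slfn2, Slfn4 and Slfn5 occurred exactly in a transcript of another gene. The share was 21.1% for Slfn3, shared with Slfn4 and a predicted gene, 3.1% for Slfn8, shared with Slfn9, and 3.77% for Slfn9, shared with genes outside the family. The deposited count tables list alignments that were not unique on a line of their own, apart from the genes. Whether such reads were also counted to a gene is not given in the sources used here. Values of Slfn3, Slfn4, Slfn8 and Slfn9 are therefore uncertain to that extent.

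Gene counts per library came to 3454388 to 6356125 in LKB1-deficient and 7090252 to 12211930 in control libraries, so genes with few reads were measured less precisely in the LKB1-deficient ones. LKB1-deficient replicates 2 and 4 lay furthest from the controls, with LKB1-deficient replicates 1 and 3 between. On the first principal component of log2 CPM (counts scaled to library size), which took 56.4% of the variance, LKB1-deficient replicates 1 to 4 lay at 12.5, 51.7, 6.79 and 54.4, and controls between -37.9 and -21.7. Results are therefore also given without LKB1-deficient replicates 2 and 4. The controls at the other end, replicates 3 (-37.9) and 4 (-35.9), were left out only 1 at a time. Stk11 did not pass the test (log2 fold change -0.03 ± 0.18, SE, edgeR adjusted p = 0.911), but which part of the gene was deleted is not in the labels, and 3' counts outside it do not check the genotype. The 5 CD8 T cell markers summed to 1500 to 2430 CPM in LKB1-deficient and 2980 to 3530 CPM in control libraries. Cd8a, Cd3d and Cd3g passed the test as lower. Cd8b1 (log2 fold change -0.48, edgeR adjusted p = 0.0709) and Cd3e (0.32, edgeR adjusted p = 0.202) did not pass, and Cd3e went the other way. The B cell markers summed to 4.56 to 7.88 CPM in LKB1-deficient and 7.23 to 12.6 CPM in control libraries, with Pax5 at 0, and Cd79b passed as lower. The 6 mast cell and basophil markers summed to 11 to 36.7 CPM in LKB1-deficient libraries, highest in replicates 2 and 4, and to 6.62 to 10.1 CPM in controls. Gata2 and Il1rl1 passed as higher. Kit (log2 fold change 0.51, edgeR adjusted p = 0.369) and Mcpt8 (1.235, edgeR adjusted p = 0.0511) did not pass. Fcer1a and Cpa3 had too few counts to be tested. Fcer1a was at most 0.539 CPM in LKB1-deficient and at most 0.26 CPM in control libraries. In bulk samples, fewer cells of a type and less RNA per cell cannot be told apart, and the part of these differences in the results below was not tested.

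Slfn1 was the 1 member that passed the test: LKB1-deficient cells had 2.37-fold less of it than control cells. The other 5 tested members did not pass, and Slfn4 was near 0 in all 8 libraries. Among all tested genes 10.1% passed as lower and 12.4% as higher in LKB1-deficient cells, so 1 of 6 tested members lower and 0 higher is near the background and is no result about the family as a whole. At an unadjusted p under 0.05 the edgeR counts were also 1 lower and 0 higher, and DESeq2 and limma-voom likewise called 1 lower and 0 higher. The split of all called genes depended on the scaling: TMM gave 1286 higher and 1051 lower, upper quartile scaling 1023 higher and 1446 lower, and total counts 829 higher and 1576 lower. The median log2 fold change of the 6 tested members was -0.14, against 0.00 for all tested genes. Values are CPM scaled by TMM factors, fold changes are LKB1-deficient over control, and a gene passed where edgeR's quasi-likelihood test gave a Benjamini-Hochberg adjusted p under 0.05.

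The short members held most of the schlafen counts, led by Slfn2, and Slfn1 alone of the 2 passed the test. Counts at 3' ends are given per transcript end and are not divided by transcript length. Slfn1 (ENSMUSG00000078763.2, GRCm38 chr11:83116849-83122670, plus strand) had 23.4, 38.5, 50.5 and 21 CPM in LKB1-deficient replicates 1 to 4, against 85.9, 98.5, 72.9 and 61.6 CPM in control replicates 1 to 4. Every LKB1-deficient library was below every control library, and the highest of the LKB1-deficient ones, replicate 3, was close to the lowest control. The same held for 14.1% of tested genes in this direction. Slfn1 averaged 33.3 ± 13.8 CPM in LKB1-deficient and 79.7 ± 16.0 CPM in control cells (SD, n = 4 each). Its log2 fold change was -1.25 ± 0.27 (SE, edgeR adjusted p = 0.0136, 95% interval -1.85 to -0.64), and 2.9% of tested genes passed as lower with a fold of 2 or more. Slfn1 passed in 20 of 21 alternative settings, whose adjusted p ran from 0.000379 to 0.103. It did not pass without both LKB1-deficient replicates 2 and 4, where its log2 fold change was -1.08 and its edgeR adjusted p 0.103. Sample identifiers begin with ET in replicate 1 of both groups and with EU in the others, which the labels do not explain. Among the EU libraries Slfn1 was lower by a log2 fold change of -1.07 (edgeR adjusted p = 0.0467), and ET has 1 library a group and gives no test.

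Slfn2 (ENSMUSG00000072620.3, GRCm38 chr11:83065112-83070678, plus strand), the quiescence gene, had 144, 349, 141 and 194 CPM in LKB1-deficient replicates 1 to 4, against 217, 256, 197 and 157 CPM in control replicates 1 to 4. The groups overlapped, and LKB1-deficient replicate 2 was above every control. The means were 207 ± 98.1 CPM in LKB1-deficient and 206 ± 41.2 CPM in control cells (SD, n = 4 each). The log2 fold change was 0.00 ± 0.29 (SE, edgeR adjusted p = 0.997), and its 95% interval, -0.63 to 0.64, leaves room for a difference of about 1.5-fold either way. Without LKB1-deficient replicates 2 and 4 it was -0.53 (edgeR adjusted p = 0.178).

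**Figure D1:**
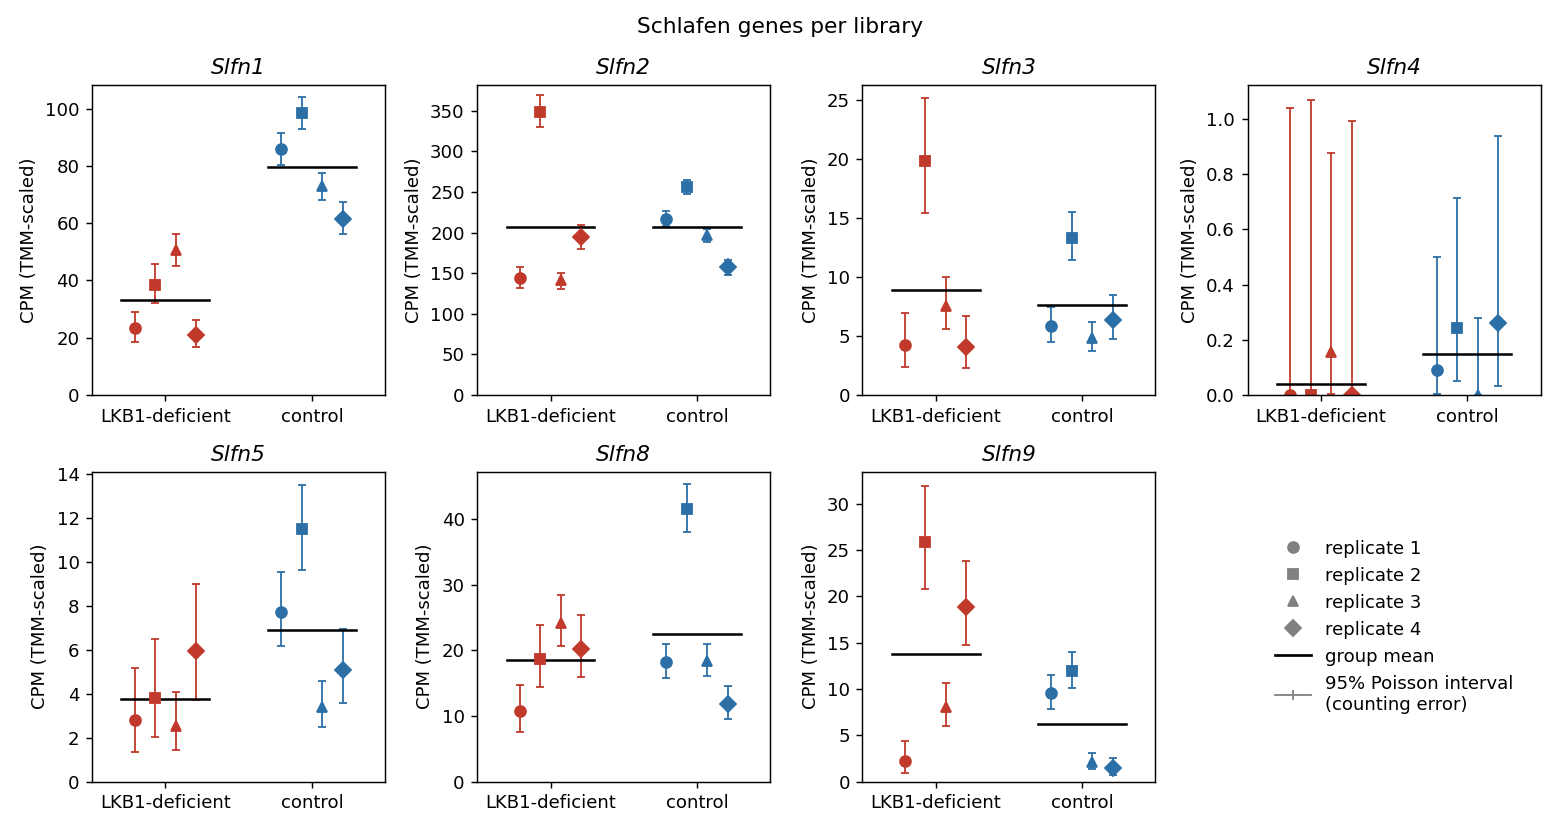
Expression of the 7 schlafen genes in each library, in TMM-scaled CPM from 0, with LKB1-deficient libraries left of controls, group means as lines and 95% Poisson intervals of the counts as bars. In Slfn1 the 4 LKB1-deficient libraries (21 to 50.5 CPM) lie below the 4 controls (61.6 to 98.5 CPM), while the groups of every other member overlap.

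The number of Slfn1 counts per Slfn2 count within a library does not depend on the scaling between libraries. It was 0.162, 0.11, 0.359 and 0.108 in LKB1-deficient replicates 1 to 4, against 0.396, 0.386, 0.371 and 0.393 in control replicates 1 to 4. The controls were nearly alike. LKB1-deficient replicate 3 came close to them, and the other 3 LKB1-deficient libraries had fewer Slfn1 counts per Slfn2 count than any control by more than 2-fold. The ratio depends on both genes. In LKB1-deficient replicate 2 Slfn2, at 349 CPM, was the highest of the 8 libraries, with Slfn1 at 38.5 CPM. As a share of Slfn1 and Slfn2 counts together, Slfn1 made up 26.4% in LKB1-deficient replicate 3 (95% Clopper-Pearson interval 24.0 to 29.0%), against 27.0% in control replicate 3 (25.6 to 28.5%). In LKB1-deficient replicate 2 it made up 9.92% (8.36 to 11.7%), and in control replicate 2 27.8% (26.5 to 29.2%). The libraries carry no stated molecular identifiers, so these intervals cover counting error only.

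**Figure D2:**
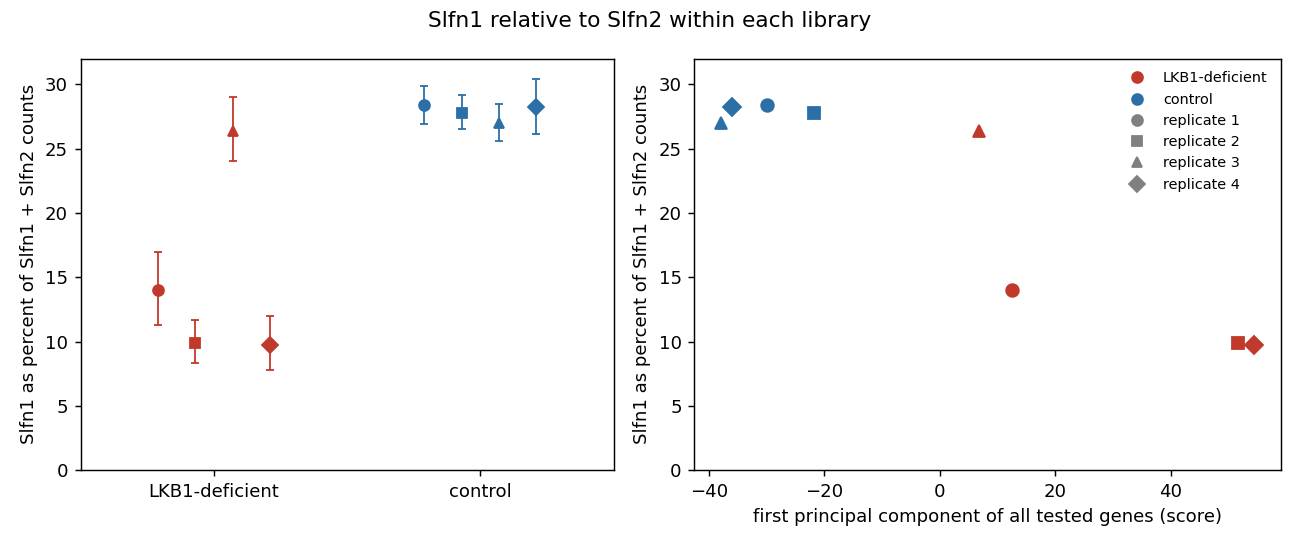
Slfn1 as a percentage of Slfn1 and Slfn2 counts in each library, by group with 95% Clopper-Pearson intervals (left) and against the first principal component of all tested genes (right). LKB1-deficient replicate 3, at 26.4%, lies near the controls (27.0 to 28.4%), and the other LKB1-deficient libraries lie between 9.77 and 14%.

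The makeup of the family followed from these counts. Of all counts on the 7 members, Slfn1 took 12.6 ± 6.32% in LKB1-deficient and 24.4 ± 1.12% in control libraries (SD, n = 4 each). The difference was -11.7 percentage points, with no test, and it ranged from -14.7 to -7.31 over the alternatives. Slfn2 took 71.8 ± 7.86% in LKB1-deficient and 63.1 ± 2.92% in control libraries. Slfn8, the next most abundant, took 4.09 to 10.4% in LKB1-deficient and 4.86 to 9.6% in control libraries. The 7 members summed to 187.1, 456, 233.6 and 264.2 CPM in LKB1-deficient replicates 1 to 4, against 344.1, 432.6, 298.2 and 243.3 CPM in control replicates 1 to 4, with overlapping groups.

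**Figure D3:**
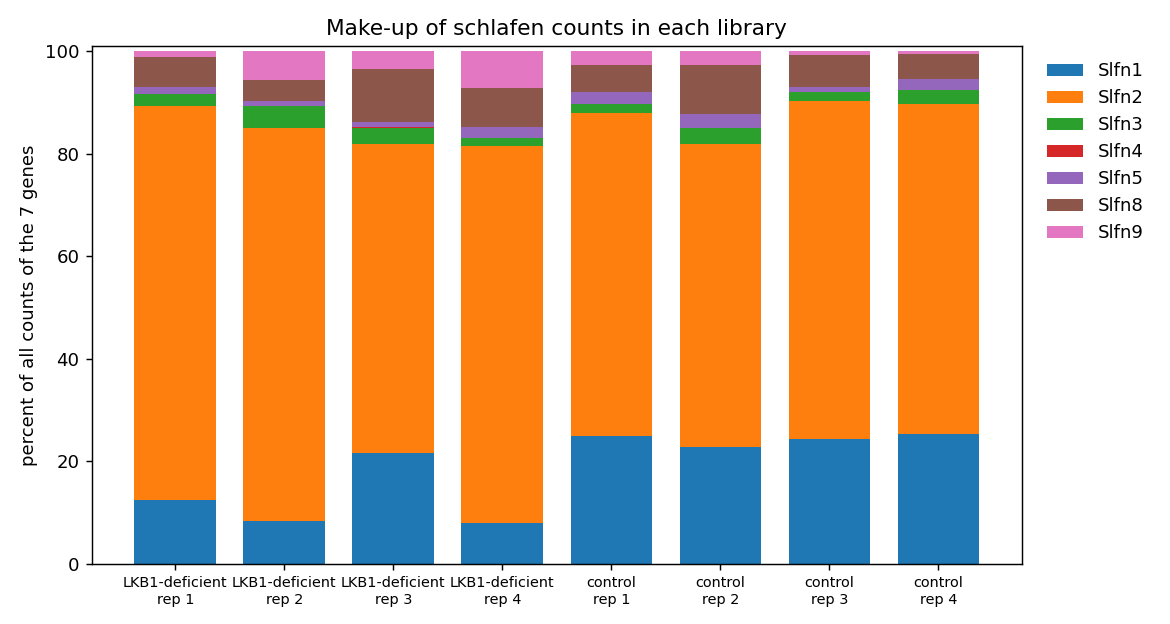
Percentage of each library's schlafen counts that fell on each member, with LKB1-deficient libraries left of control libraries. Slfn2 takes 60.2 to 76.8% in LKB1-deficient and 59.1 to 65.9% in control libraries, and Slfn1 takes 7.96 to 21.6% in LKB1-deficient and 22.8 to 25.3% in control libraries.

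The intermediate members were low. Slfn3, studied mostly in regulatory T cells and gut epithelium, had 4.22, 19.8, 7.55 and 4.04 CPM in LKB1-deficient replicates 1 to 4, against 5.84, 13.3, 4.84 and 6.37 CPM in control replicates 1 to 4. Replicate 2 was the highest library of each group, and the groups overlapped. The log2 fold change was 0.21 ± 0.50 (SE, edgeR adjusted p = 0.791), and it fell below 0 without LKB1-deficient replicate 2 (-0.48). Slfn4, a gene best known from myeloid cells, was counted 0, 0, 1 and 0 times in LKB1-deficient replicates 1 to 4, against 1, 3, 0 and 2 times in control replicates 1 to 4. A limit of 3 counts corresponds to 0.472 to 0.874 CPM in LKB1-deficient and 0.227 to 0.39 CPM in control libraries, so no difference was detectable at this depth. The neutrophil markers S100a9 and Csf3r were at 0 in all libraries.

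The long members did not pass the test, and they differed in direction. Slfn5, whose human counterpart is a nuclear protein of the interferon response, had 2.81, 3.79, 2.52 and 5.93 CPM in LKB1-deficient replicates 1 to 4, against 7.73, 11.5, 3.41 and 5.07 CPM in control replicates 1 to 4. LKB1-deficient replicate 4 lay above control replicates 3 and 4, and the other 3 LKB1-deficient libraries lay within or below the lower end of the controls. The log2 fold change was -0.91 ± 0.42 (SE, edgeR adjusted p = 0.133, 95% interval -1.84 to 0.02), and it stayed negative in the 20 alternatives that gave a value, from -1.39 to -0.55.

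Slfn8 had 10.7, 18.6, 24.2 and 20.2 CPM in LKB1-deficient replicates 1 to 4, against 18.2, 41.5, 18.4 and 11.8 CPM in control replicates 1 to 4. Control replicate 2 was far above the rest, and without it the log2 fold change was 0.20, against -0.28 ± 0.37 with it (SE, edgeR adjusted p = 0.603). Its near copy Slfn9 had 2.25, 25.9, 8.03 and 18.9 CPM in LKB1-deficient replicates 1 to 4, against 9.52, 11.9, 2.12 and 1.43 CPM in control replicates 1 to 4. LKB1-deficient replicates 2 and 4 were the highest of the 8 libraries. The log2 fold change was 1.09 ± 0.73 (SE, edgeR adjusted p = 0.284, 95% interval -0.52 to 2.70), and without LKB1-deficient replicates 2 and 4 it was -0.21 (edgeR adjusted p = 0.911). Among the EU libraries it was 1.70 (edgeR adjusted p = 0.13).

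Slfn9 also varied within groups more than almost any gene of its level. The pooled within-group SD of log2(CPM + 0.5) was 1.41, larger than in 99.8% of tested genes whose mean CPM lay within 2-fold of its own. The genes most like Slfn9 over the 8 libraries, by the correlation of deviations from the group means, were Ankhd1 (r = 0.995), Chd2 (r = 0.995) and Chd4 (r = 0.991), whose longest transcripts have 8223, 9085 and 6697 bases, against a median of 3338 for tested genes. The points share library and depth. The trend of log2 expression on transcript length, read at the length of Slfn9, was 0.0243, 0.236, 0.0583 and 0.221 in LKB1-deficient replicates 1 to 4, against -0.051, -0.0102, -0.204 and -0.21 in control replicates 1 to 4. The trend was highest in the same 2 libraries as Slfn9. At the length of Slfn5 it was also highest there, at 0.255 and 0.238 in LKB1-deficient replicates 2 and 4. With each library's trend removed, a setting chosen after seeing the data, the log2 fold change of Slfn9 was 0.85 (edgeR adjusted p = 0.391). That of Slfn1 was -1.08 (edgeR adjusted p = 0.0258). That of Slfn5 was -1.16 (edgeR adjusted p = 0.0543), against -0.91 with the trend kept. The part of transcript length in the values of Slfn9 was not tested.

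The other members resembled other genes. Slfn1 was most like Ndufs4 (r = 0.954), Ap4e1 (r = 0.953) and Gbp4 (r = 0.953). Gbp4, an interferon-inducible GTPase, averaged 69.7 CPM in LKB1-deficient and 174 CPM in control cells, with a log2 fold change of -1.32 ± 0.18 (SE, edgeR adjusted p = 0.00341). Ndufs4, a subunit of respiratory complex I, had a log2 fold change of -0.24 ± 0.18 (SE, edgeR adjusted p = 0.355), and Ap4e1 one of 0.22 ± 0.12 (SE, edgeR adjusted p = 0.202), so neither passed. Slfn2 was most like Rbm5 (r = 0.988), and Slfn8 like Map4 (r = 0.988). The longest transcripts of Rbm5 and Map4, with 6321 and 6091 bases, were also above the median of 3338, so long partners were not particular to Slfn9. Those of Ndufs4, Ap4e1 and Gbp4 had 1698, 4600 and 4538 bases. Between members, r was 0.783 for Slfn2 with Slfn9 and 0.273 for Slfn1 with Slfn2. These are descriptions over 8 libraries chosen from 7702 genes, with no test.

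A transcribed pseudogene between Slfn8 and Slfn2, Slfn10-ps (GRCm38 chr11:83028130-83040042, minus strand), is no member and was picked out after its values had been seen. It had 27.6, 38.8, 32.1 and 51.5 CPM in LKB1-deficient replicates 1 to 4, against 18.4, 28.5, 16.0 and 16.0 CPM in control replicates 1 to 4. The means were 37.5 ± 10.4 CPM in LKB1-deficient and 19.7 ± 5.98 CPM in control cells (SD, n = 4 each), and 1 LKB1-deficient library lay below the highest control. The log2 fold change was 0.92 ± 0.24 (SE, edgeR adjusted p = 0.0252). It passed in 15 of 21 alternatives and was not called when LKB1-deficient replicate 2 or 4 or control replicate 1, 3 or 4 was left out, with adjusted p of 0.055 to 0.0759, or without both LKB1-deficient replicates 2 and 4 (log2 fold change 0.60, edgeR adjusted p = 0.217). Of its 50-base windows, 17.5% occurred exactly in transcripts of Slfn8 or Slfn9.

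**Figure D4:**
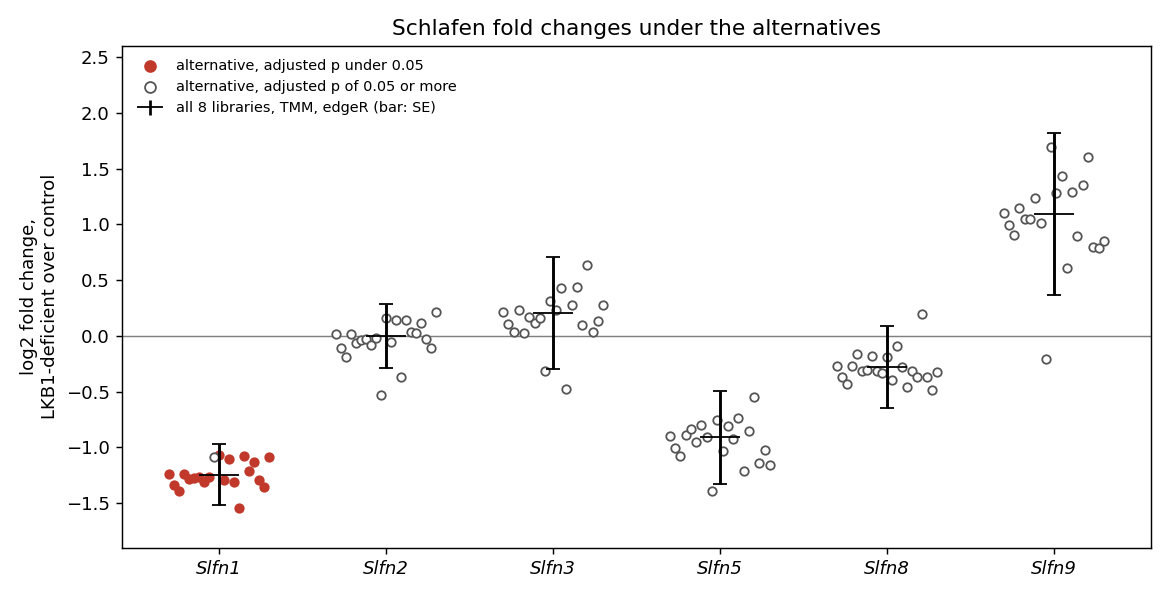
Log2 fold change, LKB1-deficient over control, of the tested schlafen genes with all 8 libraries, TMM and edgeR (black, bar for the SE) and under each alternative (points, filled for an adjusted p under 0.05). Slfn1 lies between -1.54 and -1.07 in every setting run, while Slfn2, Slfn3, Slfn8 and Slfn9 have points on both sides of 0.

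Some interferon-stimulated genes were lower in LKB1-deficient cells. Of 43 interferon-stimulated genes, all tested, 15 were lower, 2 were higher and 26 did not pass, with a median log2 fold change of -0.56. Over all tested genes 10.1% were lower and 12.4% higher, with a median of 0.00. Gbp2, an interferon-inducible GTPase, averaged 117 ± 16.3 CPM in LKB1-deficient and 446 ± 169 CPM in control cells (SD, n = 4 each, log2 fold change -1.92, edgeR adjusted p = 0.00341). Zbp1, a sensor of Z-form nucleic acid, averaged 30.8 CPM in LKB1-deficient and 72.4 CPM in control cells (log2 fold change -1.23, edgeR adjusted p = 0.00317). Rtp4 averaged 7.12 ± 1.02 CPM in LKB1-deficient and 17.3 ± 2.09 CPM in control cells (SD, n = 4 each, log2 fold change -1.29, edgeR adjusted p = 0.00341). The 2 that were higher, Ifitm3 and Ifitm1, encode membrane proteins that restrict viruses, and they were named after their values had been seen. Ifitm3 averaged 50.2 ± 30.8 CPM in LKB1-deficient and 11.9 ± 5.64 CPM in control cells (log2 fold change 2.08, edgeR adjusted p = 0.0168), and Ifitm1 averaged 32.4 ± 22.9 CPM in LKB1-deficient and 7.59 ± 4.35 CPM in control cells (log2 fold change 2.10, edgeR adjusted p = 0.0243). Without both LKB1-deficient replicates 2 and 4, 7 of the list were lower and 0 higher. The number higher was 0 when LKB1-deficient replicate 4 was left out, and 1 when LKB1-deficient replicate 2 or control replicate 1, 2 or 3 was.

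Of 17 interferon receptor and signalling genes, 4 were lower, 0 were higher and 13 did not pass, with a median of -0.35; at an unadjusted edgeR p under 0.05, 7 were lower and 0 higher. Irf7, a factor that amplifies the interferon response, averaged 11.1 ± 1.72 CPM in LKB1-deficient and 32.5 ± 1.64 CPM in control cells (SD, n = 4 each, log2 fold change -1.54, edgeR adjusted p = 0.00151). Irf1 averaged 121 ± 16.6 CPM in LKB1-deficient and 212 ± 14.1 CPM in control cells (log2 fold change -0.81, edgeR adjusted p = 0.00561), and Jak2, a kinase bound to the interferon gamma receptor, averaged 97.8 ± 5.79 CPM in LKB1-deficient and 125 ± 2.92 CPM in control cells (log2 fold change -0.35, edgeR adjusted p = 0.0404). The number lower was 2 without both LKB1-deficient replicates 2 and 4, and likewise when any of the 4 controls was left out or with a term for the identifier prefix, and it was 7 with total count scaling.

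Of 32 genes of T cell quiescence, 30 were tested: 7 were higher, 5 were lower and 18 did not pass, with a median of 0.08, beside 12.4% higher and 10.1% lower over all tested genes. Cdkn1b, which encodes the cell cycle inhibitor p27, averaged 31.0 ± 2.58 CPM in LKB1-deficient and 56.4 ± 2.68 CPM in control cells (SD, n = 4 each, log2 fold change -0.86, edgeR adjusted p = 0.00341). Ccr7, a lymph node homing receptor of naive cells, averaged 348 ± 44.5 CPM in LKB1-deficient and 719 ± 104 CPM in control cells (log2 fold change -1.05, edgeR adjusted p = 0.00431). Runx1 went the other way, with 27.4 ± 7.36 CPM in LKB1-deficient and 10.3 ± 1.0 CPM in control cells (log2 fold change 1.39, edgeR adjusted p = 0.00404). The number higher was 4 when LKB1-deficient replicate 2 or 4 or control replicate 3 or 4 was left out, and without both LKB1-deficient replicates 2 and 4 there were 3 higher and 2 lower. Of 6 genes of tRNA cleavage and protection, 4 were tested and 1 was higher, too few to set against the 12.4% of all tested genes: Elac2, which trims the 3' ends of tRNAs, with 32.7 ± 5.38 CPM in LKB1-deficient and 19.5 ± 1.97 CPM in control cells (log2 fold change 0.74, edgeR adjusted p = 0.0111). Without both LKB1-deficient replicates 2 and 4 it did not pass. Nsun2, a tRNA methyltransferase, had a log2 fold change of 0.29 (edgeR adjusted p = 0.142), and Rnh1, a ribonuclease inhibitor, one of -0.25 (edgeR adjusted p = 0.258).

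The protein-coding genes that start within 500 kb of the schlafen cluster, members left out, were set beside it. The pseudogene Slfn10-ps is therefore not among them. Of 13 tested neighbours, 4 were higher in LKB1-deficient cells, 0 were lower and 9 did not pass by edgeR, with a median log2 fold change of 0.39, and at an unadjusted p under 0.05 the counts were 5 higher and 0 lower. Over all tested genes 12.4% were higher and 10.1% lower, so 0 of 13 lower is near the background. The 4 were Lig3, a DNA ligase, and the chemokines Ccl3, Ccl4 and Ccl9. Ccl3 averaged 698 ± 193 CPM in LKB1-deficient and 344 ± 21 CPM in control cells (SD, n = 4 each, log2 fold change 1.02, edgeR adjusted p = 0.0113), and Ccl4 averaged 528 ± 138 CPM in LKB1-deficient and 345 ± 12.9 CPM in control cells (log2 fold change 0.61, edgeR adjusted p = 0.0463). Ccl9 averaged 56.0 ± 27.9 CPM in LKB1-deficient and 26.2 ± 6.09 CPM in control cells (log2 fold change 1.09, edgeR adjusted p = 0.0462). Lig3 averaged 72.0 ± 7.79 CPM in LKB1-deficient and 48.9 ± 4.83 CPM in control cells (log2 fold change 0.56, edgeR adjusted p = 0.0168). The number of neighbours that passed was 1 with total count scaling or without control replicate 3, 2 when LKB1-deficient replicate 1, 2 or 4 or control replicate 2 or 4 was left out, and 0 without both LKB1-deficient replicates 2 and 4.

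**Figure D5:**
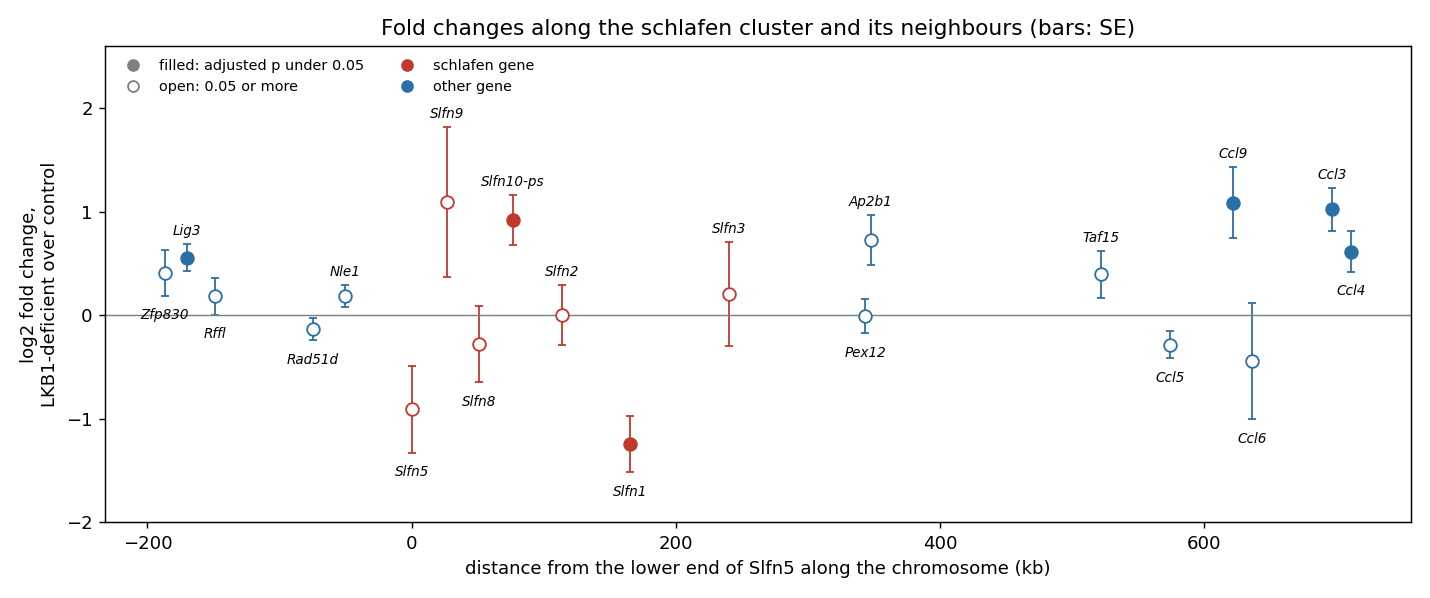
Log2 fold change, LKB1-deficient over control, of the schlafen genes and their tested neighbours against distance from the lower end of Slfn5, with bars for the SE and filled points for an adjusted p under 0.05. Slfn1 at -1.25 is the 1 filled point below 0, and Ccl3, Ccl4, Ccl9, Lig3 and Slfn10-ps are the filled points above it.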

How the data were processed

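For each of 8 libraries the authors deposited a table of raw counts by gene symbol. Per the labels' protocols, cDNA was made with barcoded oligo-dT primers and the libraries keep the strand. Per the submitters' processing notes, reads were aligned with STAR to mm10; no version, counting program or annotation was named in the sources used here. The 5 lines of each table that name no gene were left out of library sizes. No-feature counts came to 14.9 to 17.5% in LKB1-deficient and 12.1 to 14.3% in control libraries. Alignments that were not unique came to 2.21 to 2.65 per gene count in LKB1-deficient and 2.92 to 3.50 in control libraries. The part of this difference in the schlafen values was not tested.

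Counts were tested in R 4.3.3 with edgeR 4.0.16: filterByExpr with a minimum count of 10 and a minimum total of 15, TMM scaling, a robust quasi-likelihood fit without covariates on all genes, Benjamini-Hochberg adjustment over all tested genes and a threshold of 0.05. The 95% intervals come from the fold change, its SE and the fit's degrees of freedom. Coordinates and transcripts come from GENCODE vM21 and promoter sequences from RefSeq. DESeq2 1.42.0 and limma 3.58.1 were among the alternatives, as were other scalings and filters, a replicate block, an identifier prefix term, thinning to 3454388 counts and leaving out libraries. Removing the transcript length trend (lowess span 0.3) was chosen after seeing the data. The test was checked on simulated data.

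The members and lists were chosen with earlier results of these data known. Named genes are the members, the 3 tested genes of smallest p in each list, the neighbours that passed, and the 3 genes most like each member of at least 10 CPM, of which some are printed; exceptions are stated where they occur, and some genes that the counts cover are not reported here.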

Additional observations from a re-analysis of the deposited data

Results flagged for a closer look

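Of 30 groups of 4 libraries checked for a library far from the others, 2 had one, and both rest on the same read. Chance flags about 1 in 20 such groups of normally distributed values, a rate that does not hold for counts of 0 and 1. Slfn4 had 0.157 CPM in LKB1-deficient replicate 3 and 0 in the other 3 LKB1-deficient libraries. The same count made up 0.0674% of the schlafen counts of that library. It is 1 count, below the limit of 3 counts.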

How the results depend on the processing

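Slfn1 was lower in every alternative run and passed in 20 of 21, with log2 fold changes of -1.54 to -1.07. Without both LKB1-deficient replicates 2 and 4 it was -1.08 (edgeR adjusted p = 0.103), and 0 members passed. With only the libraries whose identifiers begin with EU it was -1.07. The other members passed in no alternative. Slfn2, near 0, turned negative with upper quartile (-0.11) and total count scaling (-0.19), limma-voom (-0.064), a mean CPM of at least 10 (-0.025), no filter (-0.039), the prefix term (-0.022), thinning (-0.059) and without both replicates (-0.53), and ranged from -0.37 to 0.14 with 1 library left out. Without both replicates Slfn3 was -0.32 and Slfn9 -0.21; with 1 library left out, Slfn3 ranged from -0.48 to 0.63 and Slfn8 from -0.48 to 0.20. A mean CPM of at least 10 left no value for Slfn3, Slfn5 and Slfn9. Upper quartile and total count scaling moved the median of all genes to -0.10 and -0.16.

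Same-numbered libraries deviated together with r of -0.251, 0.291, 0.3 and -0.0861, and 3 of 8 libraries correlated best with their own number, so the numbers were not taken to pair samples. With the replicate block Slfn1 was -1.31 (adjusted p = 0.013), Slfn2 was -0.079, 18.3% of genes passed, and 2 neighbours were higher and 2 interferon signalling genes lower.

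Leaving out both LKB1-deficient replicates reduced the genes called to 162 higher and 98 lower of 10948 tested. It left 0 higher and 7 lower interferon-stimulated genes, 3 higher and 2 lower quiescence genes, 0 higher tRNA genes, 0 higher neighbours and 2 lower interferon signalling genes. Total count scaling gave 829 genes higher and 1576 lower, 1 neighbour higher and 7 interferon signalling genes lower. The prefix term gave 2 neighbours higher and 2 interferon signalling genes lower. The EU libraries gave 666 genes lower and 2 neighbours higher. With 1 library left out, the counts ran from 560 to 1472 higher and 441 to 1353 lower genes, 0 to 2 higher interferon-stimulated genes, 4 to 7 higher quiescence genes, 1 to 5 higher neighbours and 2 to 5 lower interferon signalling genes. For all genes, the largest drops came without LKB1-deficient replicate 2 or 4 or control replicate 3 or 4. The cause was not tested. Slfn4 had at most 3 counts in a library, and Slfn9 and Slfn5 had as few as 8 and 10, so counting error is large there.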

Other observations

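The schlafen genes varied within groups more than most genes of similar level. The pooled within-group SD of log2(CPM + 0.5) was 0.465 for Slfn1, larger than in 90.5% of tested genes whose mean CPM lay within 2-fold of its own. It was 0.479 for Slfn2 (88.9%), 0.83 for Slfn3 (96.7%), 0.602 for Slfn5 (87.6%) and 0.628 for Slfn8 (95.9%). By mean CPM, Slfn2 stood above 89.9% of tested genes and Slfn1 above 65.0%. Slfn14 and Slfnl1, relatives outside the 7 members, were at 0 in all 8 libraries, and the antisense gene Slfn5os had 1 count in control replicate 1.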
